A study of Homo sapiens with 18 samples.

Results

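The genes described are 10 neighbours in band q13 on the long arm of chromosome 11: CCND1, FADD, PPFIA1, CTTN, ANO1, LTO1, SHANK2, FGF19, TPCN2 and MYEOV. They were chosen by name as genes around CCND1, with earlier results of these data known. Not every gene of the interval is a member. They are 10 of the 41120 gene symbols in the deposited table. All 10 symbols were in the table. Of these, 9 passed a filter on low counts and were tested, and FGF19 did not pass it. MYEOV passed only because of its level in FaDu cells: judged on the SCC154 libraries alone it would have been left out, so no count over the tested genes is read as support for a difference.

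The study sequenced the 3′ ends of polyadenylated RNA from 2 head and neck squamous carcinoma lines, SCC154, which carries human papillomavirus (HPV), and FaDu, which does not. Both lines, titled SCC154-hfm and FADU-hfm, were transduced with a hypoxia-fate mapping system, in which cells fluoresce red (DsRed) until low oxygen switches them for good to green (GFP). Spheroids were taken apart with trypsin, green (post-hypoxic) and red (non-hypoxic) cells were sorted, and the sorted cells were cultured and passaged at normal oxygen before RNA was taken. The 4 groups were post-hypoxic SCC154 (4 libraries), non-hypoxic SCC154 (5 libraries), post-hypoxic FaDu (5 libraries) and non-hypoxic FaDu (4 libraries). Each HPV status is represented by a single line, so HPV status and line cannot be told apart. The DNA copy number of the region was not measured in the data used here. Library totals ran from 1654719 to 2503573 counts, and 12291 genes were tested. Whether replicates came from different cultures or sorts is not in the labels, and p-values reflect no more than the spread among these libraries, which may be technical. All 10 listed squamous epithelial markers were detected in every group, with summed levels of 2351 to 2670 CPM (tag counts scaled to the TMM-adjusted size of the library) in post-hypoxic and 2386 to 2669 CPM in non-hypoxic SCC154, against 3094 to 3297 CPM in post-hypoxic and 2935 to 3320 CPM in non-hypoxic FaDu. None of the 12 listed fibroblast, immune and endothelial markers passed the filter, and no such list summed to more than 5.77 CPM in any library.

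Band 11q13 is one of the segments of the genome most often gained in squamous carcinomas of the head and neck, mainly in those without HPV, and FaDu is widely used as a line with such a gain. CCND1 encodes cyclin D1, which binds CDK4 and CDK6; these kinases phosphorylate the retinoblastoma protein and so let cells leave G1. In HPV-positive tumours a viral protein inactivates the retinoblastoma protein directly. The neighbours belong to other pathways: FADD to death receptor signalling, CTTN to branched actin, PPFIA1 to adhesion, ANO1 to chloride transport and TPCN2 to lysosomal ion flow.

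On GRCh38 with GENCODE v29, the genes lie in the order TPCN2 (chr11:69048897-69162440, plus strand), MYEOV (chr11:69294138-69367726, plus), CCND1 (chr11:69641087-69654474, plus), LTO1 (chr11:69653076-69675416, minus), FGF19 (chr11:69698232-69704642, minus), ANO1 (chr11:70078302-70189528, plus), FADD (chr11:70203163-70207390, plus), PPFIA1 (chr11:70270700-70385312, plus), CTTN (chr11:70398404-70436584, plus) and SHANK2 (chr11:70467856-71252577, minus). CCND1 and LTO1 run towards each other and overlap over 1399 bp at their 3′ ends, which is where the tags of this assay fall. Whether the authors counted by strand is not given in the sources used here, so tags in that overlap cannot be assigned to CCND1 or LTO1 with certainty. The 3′ end of PPFIA1 likewise lies within the span of the antisense transcript CTTN-DT, and antisense annotations cover the 3′ ends of FADD and TPCN2.

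RefSeq promoter windows (250 bases before to 50 after the start, GRCh38.p14) matched 5 of the 10 genes: LTO1, FADD, PPFIA1, ANO1 and TPCN2. Those of 3 genes that were lower in SCC154 and of ANO1, the only member that was higher, are shown for comparison with the values that follow. Capitals mark ACGTG and GCGTG, the core letters bound by hypoxia-inducible factors, read on either strand. The LTO1 window is chr11:69675304-69675603 (minus strand), the FADD window chr11:70203046-70203345 (plus), the PPFIA1 window chr11:70270440-70270739 (plus) and the ANO1 window chr11:69985657-69985956 (plus), which lies upstream of the ANO1 start in GENCODE v29.
LTO1: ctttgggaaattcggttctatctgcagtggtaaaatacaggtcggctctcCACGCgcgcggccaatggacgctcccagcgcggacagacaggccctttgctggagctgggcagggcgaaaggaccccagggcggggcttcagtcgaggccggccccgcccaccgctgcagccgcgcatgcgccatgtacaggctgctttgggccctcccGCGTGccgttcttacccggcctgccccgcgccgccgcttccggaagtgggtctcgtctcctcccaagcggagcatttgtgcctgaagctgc
FADD: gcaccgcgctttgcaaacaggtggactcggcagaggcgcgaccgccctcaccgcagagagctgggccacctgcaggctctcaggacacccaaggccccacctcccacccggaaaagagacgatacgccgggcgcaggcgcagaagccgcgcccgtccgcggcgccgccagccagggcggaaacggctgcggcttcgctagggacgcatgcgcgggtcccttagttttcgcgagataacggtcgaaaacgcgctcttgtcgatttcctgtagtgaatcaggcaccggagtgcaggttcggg
PPFIA1: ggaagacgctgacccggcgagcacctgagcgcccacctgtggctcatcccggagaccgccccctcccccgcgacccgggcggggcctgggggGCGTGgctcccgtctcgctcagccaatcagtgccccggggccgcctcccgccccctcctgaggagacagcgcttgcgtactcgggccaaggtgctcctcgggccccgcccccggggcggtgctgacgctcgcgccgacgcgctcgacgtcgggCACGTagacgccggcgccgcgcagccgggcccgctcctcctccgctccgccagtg
ANO1: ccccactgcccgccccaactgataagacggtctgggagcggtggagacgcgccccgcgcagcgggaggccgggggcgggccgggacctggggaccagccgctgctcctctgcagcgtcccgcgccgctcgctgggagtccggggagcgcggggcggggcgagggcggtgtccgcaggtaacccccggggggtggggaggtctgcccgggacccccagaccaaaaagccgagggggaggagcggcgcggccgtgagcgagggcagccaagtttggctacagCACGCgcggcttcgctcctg
All 4 windows are rich in G and C, from 66.7% in FADD to 77.7% in PPFIA1, beside a median of 61.7% over 19200 RefSeq promoter windows of the same length. GCGTG occurs in those of LTO1 (2 times), PPFIA1 (1 time) and ANO1 (1 time), and ACGTG in that of PPFIA1 (1 time). FADD and TPCN2 have neither in their windows. Of all 19200 windows, 41.7% hold GCGTG, 23.2% hold ACGTG and 53.8% hold at least 1 of them, so that such letters are common. A match is a description of the sequence, not a site of binding. The CpG count is 36 in the ANO1 window and 29 to 42 in the other 3 that are printed, beside a median of 20 over all windows. The TPCN2 window, not printed, has 21 CpG and 66.0% G and C.

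The first comparison set the 2 lines side by side within each sorted fraction. CCND1, LTO1, FADD, PPFIA1, CTTN, SHANK2 and MYEOV were lower in SCC154 than in FaDu in both fractions, by 3.51-fold to 10.5-fold. ANO1, in the middle of the same segment, went the other way and was 8.27-fold higher in post-hypoxic and 7.87-fold higher in non-hypoxic SCC154. TPCN2, at the edge of the segment, differed least. In the post-hypoxic fraction edgeR's quasi-likelihood test called 8 of the 9 tested members, 7 lower and 1 higher in SCC154, where 69.7% of all tested genes were called (34.9% lower and 34.8% higher). In the non-hypoxic fraction all 9 were called, 8 lower and 1 higher, where 68.9% of all genes were called (34.5% lower and 34.5% higher). Because the lines differed at most genes, being called sets no member apart. Differences of at least 2-fold were less frequent over all genes. In each fraction 7 members were at least that much lower in SCC154. Of all genes, 17.3% were so in the post-hypoxic and 16.7% in the non-hypoxic fraction. MYEOV, among these 7, passed the filter only because of its level in FaDu, and the members were chosen by name with earlier results known. The counts given here are thus a description and no support for a difference. ANO1 was at least 2-fold higher, as were 21.2% of all genes in the post-hypoxic and 20.8% in the non-hypoxic fraction. The libraries of the lines did not overlap for any of the 9 genes, 8 lower and 1 higher in SCC154; over all tested genes 28.6% were lower and 28.7% higher without overlap in the post-hypoxic, and 27.8% lower and 28.6% higher in the non-hypoxic fraction.

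**Figure D1:**
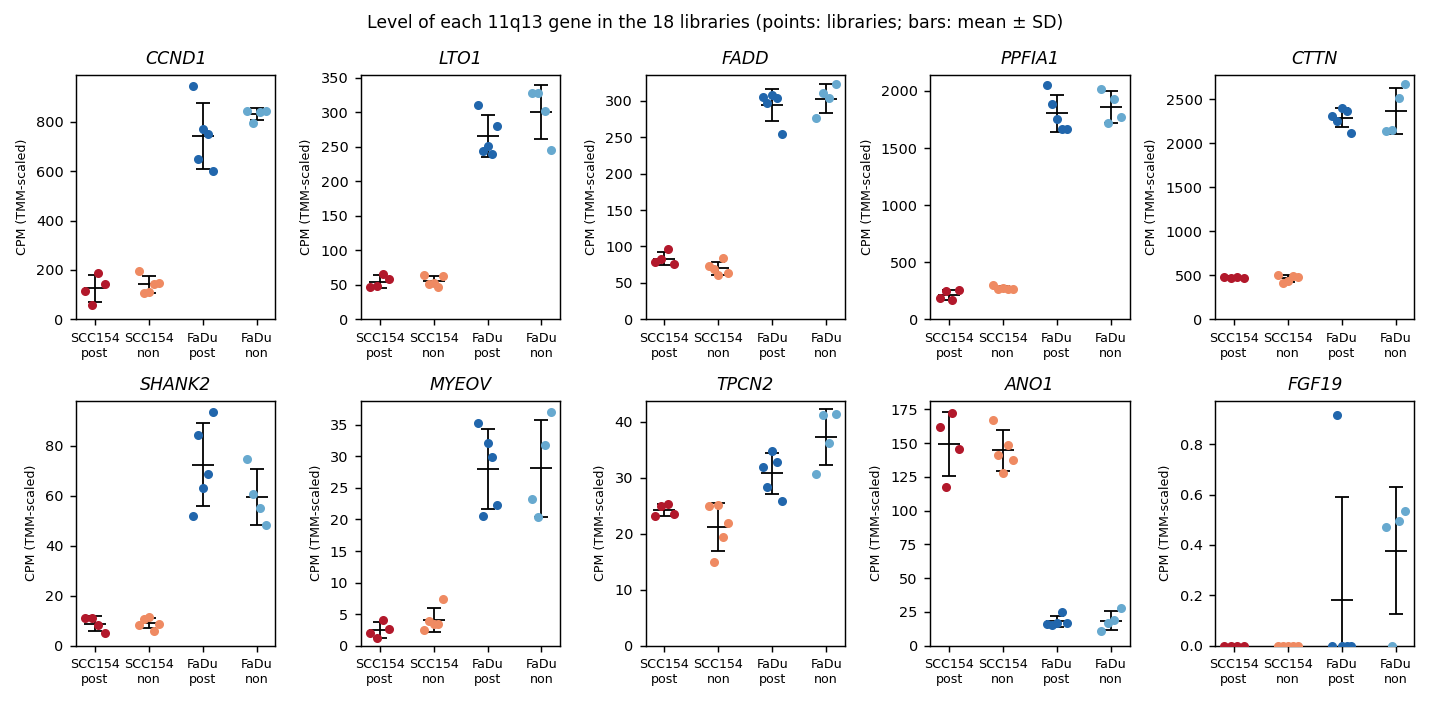
Levels of the 10 genes (CPM, own linear axis from 0 for each gene) in every library, by group; points are libraries and bars the group mean with its SD. SCC154 points lie below all FaDu points for CCND1, LTO1, FADD, PPFIA1, CTTN, SHANK2, TPCN2 and MYEOV within each fraction, and above them for ANO1, while FGF19 is at or near 0 throughout.

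CCND1 stood at 114, 58.2, 186 and 145 CPM in post-hypoxic SCC154 libraries, against 947, 651, 773, 751 and 601 CPM in post-hypoxic FaDu libraries. It stood at 195, 107, 112, 143 and 149 CPM in non-hypoxic SCC154, against 843, 795, 841 and 845 CPM in non-hypoxic FaDu. No SCC154 library came near the lowest FaDu library, although the SCC154 libraries spread more widely for their level, with replicate 3 of the post-hypoxic fraction lowest. The fitted difference was 5.87-fold lower in SCC154 in both fractions, a log2 fold change of -2.55 (SE 0.221, adjusted p = 5.35e-10) in post-hypoxic and -2.55 (SE 0.209, adjusted p = 2.2e-10) in non-hypoxic cells, tested with edgeR (quasi-likelihood) and adjusted by Benjamini and Hochberg over all tested genes, as for all adjusted p-values here. In bulk libraries fewer cells with a transcript and less of it per cell cannot be told apart.

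LTO1, whose 3′ end CCND1 overlaps, encodes an adaptor that, as known mainly from yeast, works with YAE1 to deliver iron-sulfur clusters to the ribosome recycling factor ABCE1. Its levels were 46.5, 48.7, 65.7 and 58.2 CPM in post-hypoxic SCC154, against 311, 244, 252, 239 and 281 CPM in post-hypoxic FaDu. They were 63.8, 51.0, 52.1, 47.0 and 62.3 CPM in non-hypoxic SCC154, against 328, 328, 301 and 245 CPM in non-hypoxic FaDu. The lines did not overlap in either fraction. LTO1 was 4.82-fold lower in post-hypoxic SCC154 (log2 -2.27, SE 0.133, adjusted p = 5.82e-13) and 5.44-fold lower in non-hypoxic SCC154 (log2 -2.44, SE 0.127, adjusted p = 8.68e-14).

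FADD encodes the adaptor that joins death receptors to caspase-8. Its levels were 78.6, 83.1, 96.7 and 75.4 CPM in post-hypoxic SCC154, against 305, 297, 308, 303 and 255 CPM in post-hypoxic FaDu. They were 72.7, 69.2, 60.6, 83.7 and 63.5 CPM in non-hypoxic SCC154, against 276, 310, 303 and 322 CPM in non-hypoxic FaDu. The groups were tight, and every SCC154 library lay far below every FaDu library. FADD was 3.51-fold lower in post-hypoxic SCC154 (log2 -1.81, SE 0.108, adjusted p = 7.9e-13) and 4.32-fold lower in non-hypoxic SCC154 (log2 -2.11, SE 0.106, adjusted p = 4.04e-14).

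CTTN encodes cortactin, which binds the Arp2/3 complex and steadies branched actin in the cell cortex and in invasive protrusions. Its levels were 486, 465, 487 and 473 CPM in post-hypoxic SCC154, against 2316, 2258, 2399, 2371 and 2121 CPM in post-hypoxic FaDu. They were 499, 413, 437, 490 and 486 CPM in non-hypoxic SCC154, against 2138, 2157, 2516 and 2670 CPM in non-hypoxic FaDu. The spread within groups was small beside the gap between lines, and CTTN had the smallest standard error of the 9 members in this comparison. It was 4.80-fold lower in post-hypoxic SCC154 (log2 -2.26, SE 0.0899, adjusted p = 6.5e-16) and 5.10-fold lower in non-hypoxic SCC154 (log2 -2.35, SE 0.0857, adjusted p = 1.62e-16).

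PPFIA1 encodes liprin-α1, a scaffold at the cell edge and at focal adhesions. Its levels were 191, 246, 166 and 256 CPM in post-hypoxic SCC154, against 2050, 1887, 1758, 1669 and 1671 CPM in post-hypoxic FaDu. They were 298, 269, 272, 269 and 266 CPM in non-hypoxic SCC154, against 2020, 1717, 1932 and 1770 CPM in non-hypoxic FaDu. Again no library of one line reached the range of the other. PPFIA1 was 8.43-fold lower in post-hypoxic SCC154 (log2 -3.08, SE 0.118, adjusted p = 3.61e-16) and 6.77-fold lower in non-hypoxic SCC154 (log2 -2.76, SE 0.109, adjusted p = 7.66e-16). SHANK2, a scaffold best known from the postsynaptic side of excitatory synapses, ranged from 4.97 to 11.3 CPM in post-hypoxic SCC154 against 52.1 to 93.7 CPM in post-hypoxic FaDu, and from 6.04 to 11.4 CPM in non-hypoxic SCC154 against 48.3 to 74.7 CPM in non-hypoxic FaDu. It was 8.23-fold lower in post-hypoxic SCC154 (log2 -3.04, SE 0.227, adjusted p = 3.96e-11) and 6.68-fold lower in non-hypoxic SCC154 (log2 -2.74, SE 0.219, adjusted p = 1.4e-10). Both scaffold genes thus had lines that did not overlap.

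ANO1 encodes a chloride channel opened by calcium. Its levels were 162, 117.5, 173 and 145 CPM in post-hypoxic SCC154, against 16.3, 15.1, 16.7, 25.1 and 16.6 CPM in post-hypoxic FaDu. They were 167.5, 141, 128, 149 and 138 CPM in non-hypoxic SCC154, against 10.9, 16.5, 18.9 and 27.9 CPM in non-hypoxic FaDu. Here the order of the lines was turned round, with the lowest SCC154 library well above the highest FaDu library. ANO1 was 8.27-fold higher in post-hypoxic SCC154 (log2 3.05, SE 0.181, adjusted p = 6.66e-13) and 7.87-fold higher in non-hypoxic SCC154 (log2 2.98, SE 0.192, adjusted p = 3.49e-12). Of its nearest neighbours among the members, FGF19 on one side was at or near 0 in both lines, and FADD on the other was lower in SCC154.

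TPCN2 encodes a cation channel of lysosomes and late endosomes. Its levels were 23.2, 24.9, 25.3 and 23.5 CPM in post-hypoxic SCC154, against 32.0, 28.4, 34.8, 32.9 and 25.8 CPM in post-hypoxic FaDu. They were 25.0, 14.9, 25.2, 19.4 and 21.9 CPM in non-hypoxic SCC154, against 30.7, 41.2, 36.3 and 41.3 CPM in non-hypoxic FaDu. The libraries of the lines did not overlap, but in post-hypoxic cells the highest SCC154 and the lowest FaDu library almost met. TPCN2 was 1.76-fold lower in non-hypoxic SCC154 (log2 -0.82, SE 0.154, adjusted p = 6.13e-05). In post-hypoxic cells its log2 difference of -0.34 (SE 0.155, 95% interval -0.665 to -0.0239) had an adjusted p of 0.0519 and was not called. It passed in 4 of the 18 fits that left out 1 library: without replicate 1 (adjusted p = 0.048) or 2 (0.0375) of non-hypoxic SCC154, replicate 5 of post-hypoxic FaDu (0.0333) or replicate 1 of non-hypoxic FaDu (0.0472).

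MYEOV, named for its high level in some myelomas and of no settled function, had 1.19 to 4.08 CPM in post-hypoxic SCC154 against 20.6 to 35.2 CPM in post-hypoxic FaDu. It had 2.46 to 7.43 CPM in non-hypoxic SCC154 against 20.4 to 37.0 CPM in non-hypoxic FaDu. The SCC154 levels stood for 2 to 18 counts in a library, so its fold differences of 10.5 lower in post-hypoxic SCC154 (log2 -3.40, SE 0.317, adjusted p = 1.79e-09) and 6.54 lower in non-hypoxic SCC154 (log2 -2.71, SE 0.281, adjusted p = 1.08e-08) are the least precise among the members. FGF19, a hormone-like growth factor of the bile acid axis, had 0 counts in all 9 SCC154 libraries, 2 counts over the post-hypoxic and 3 counts over the non-hypoxic FaDu libraries. Both lines were at or below a floor of 3 counts per group, so no fold is given, and this depth could not show a difference.

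**Figure D2:**
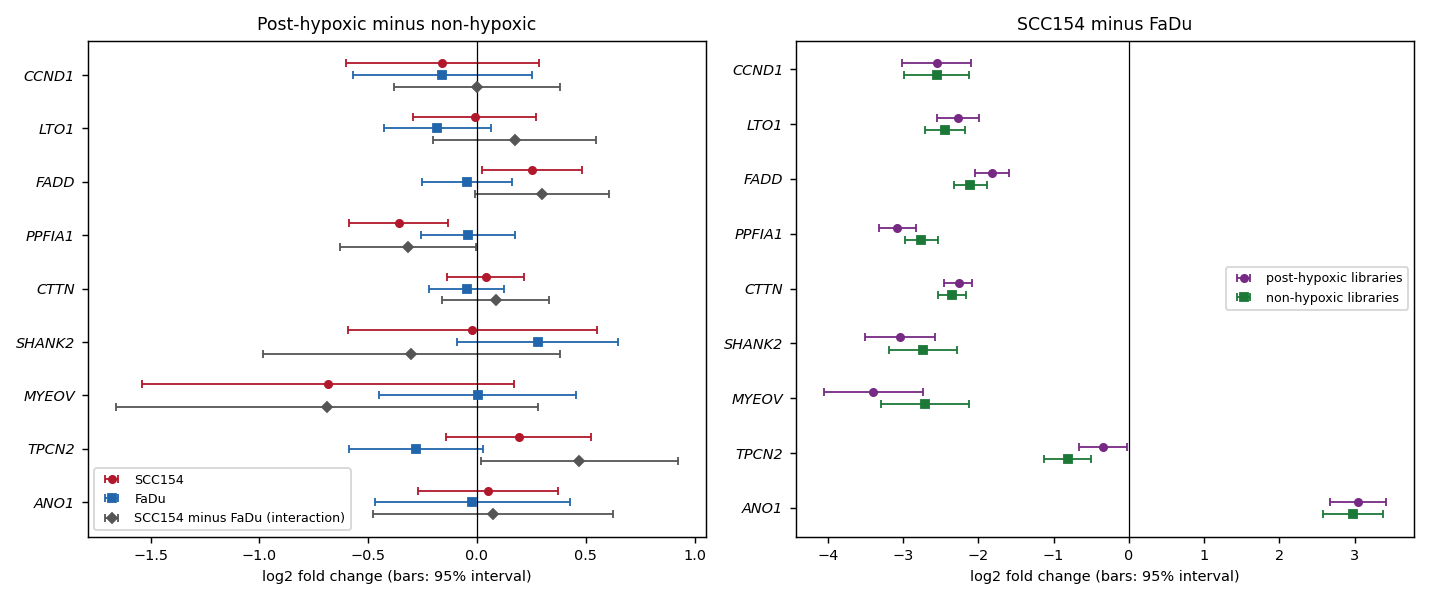
Log2 fold changes of the 9 tested genes for SCC154 minus FaDu in each fraction, and for the post-hypoxic minus the non-hypoxic fraction of each line and the interaction of these, with 95% intervals. Between the lines all intervals but that of TPCN2 lie beyond 1 on either side of 0, from -3.40 for MYEOV to 3.05 for ANO1, while between the fractions most intervals include 0.

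Summed over the 10 genes, the level was 1141 ± 70.2 CPM (SD, n = 4) in post-hypoxic SCC154 and 5553 ± 352 CPM (SD, n = 5) in post-hypoxic FaDu. It was 1185 ± 101 CPM (SD, n = 5) in non-hypoxic SCC154 and 5809 ± 275 CPM (SD, n = 4) in non-hypoxic FaDu. The FaDu sums came mainly from CTTN and PPFIA1, with means of 2293 and 1807 CPM in post-hypoxic FaDu. The sums do not show the opposite direction of ANO1. Ordered from the lowest SCC154 minus FaDu difference among the 12291 tested genes, the 7 members that were at least 2-fold lower held places 444 (MYEOV) to 913 (FADD) in post-hypoxic and 503 (PPFIA1) to 669 (FADD) in non-hypoxic cells. TPCN2 stood at 4524 in post-hypoxic and 2575 in non-hypoxic cells, and ANO1 near the other end, at 11651 and 11633.

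Between TPCN2 and SHANK2 the only other gene that was tested was CTTN-DT, a long non-coding RNA read divergently from the CTTN start (chr11:70362644-70398462, RefSeq GRCh38.p14). It had 3.81 ± 0.945 CPM (SD, n = 4) in post-hypoxic SCC154 and 30.4 ± 8.40 CPM (SD, n = 5) in post-hypoxic FaDu. It had 3.91 ± 0.716 CPM (SD, n = 5) in non-hypoxic SCC154 and 35.6 ± 10.2 CPM (SD, n = 4) in non-hypoxic FaDu. CTTN-DT was thus also lower in SCC154, with a log2 difference of -2.98 (adjusted p = 2.06e-09) in post-hypoxic and -3.19 (adjusted p = 2.67e-10) in non-hypoxic cells. Its span covers the 3′ end of PPFIA1, and tags of the 2 genes cannot be told apart without strand. Of the untested genes in the interval, FGF3 had 0 counts in SCC154, against 5 in post-hypoxic and 4 in non-hypoxic FaDu, and FGF4 had 0 in every library.

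**Figure D3:**
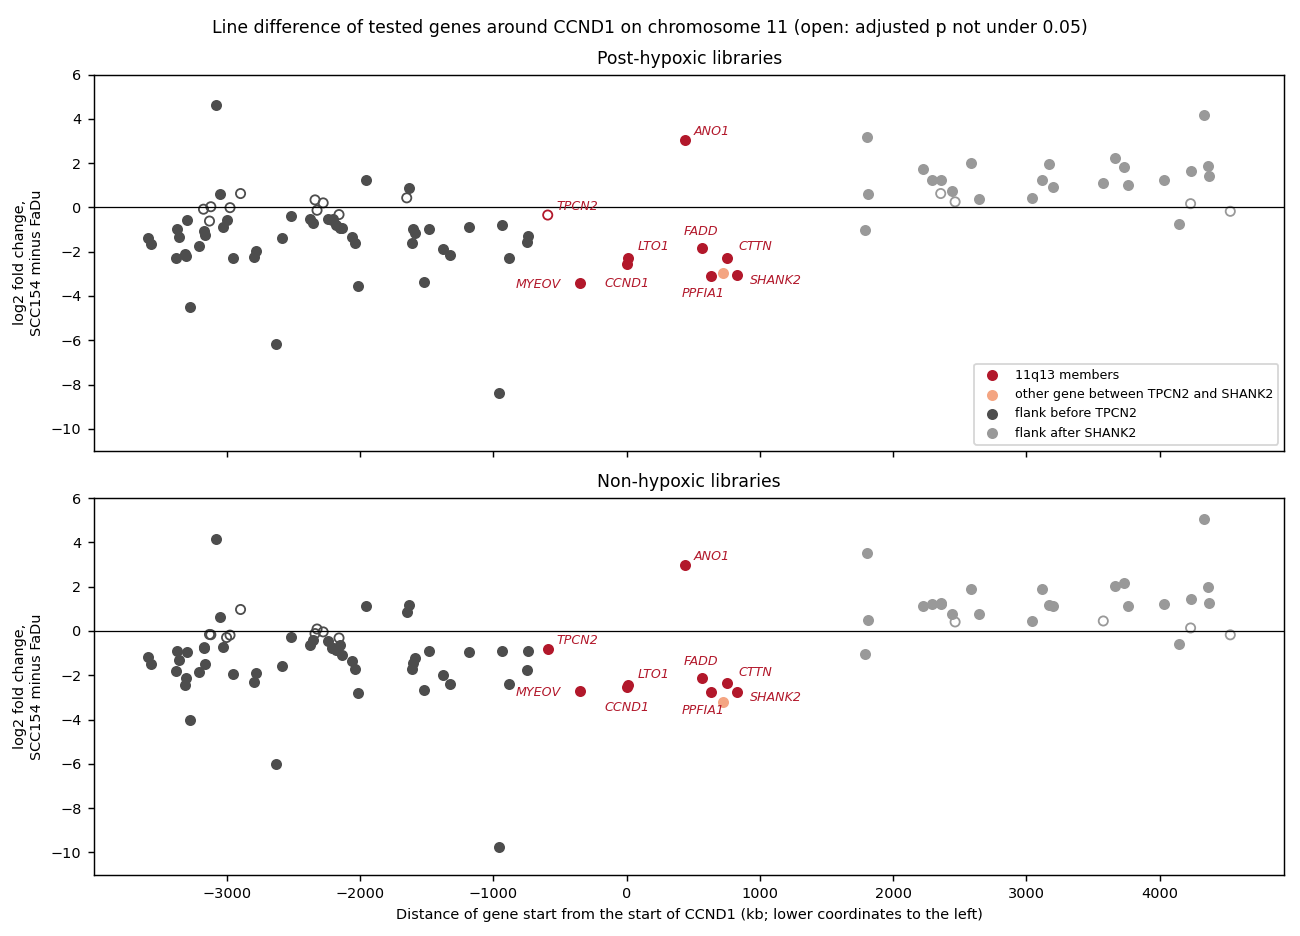
Log2 difference SCC154 minus FaDu of the tested genes within 3 Mb of the segment in each fraction, by distance from the CCND1 start; members are named. Genes before the segment lie mostly below 0, the members except ANO1 between about -0.3 and -3.4, and genes after the segment mostly above 0.

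The genes around the segment differed between its sides. In the 3 Mb before TPCN2, towards the centromere, 58 genes were tested; in SCC154 44 were called lower and 4 higher in post-hypoxic cells (median log2 difference -0.98), and 43 lower and 5 higher in non-hypoxic cells (median -0.93). In the 3 Mb after SHANK2, 27 were tested; 2 were called lower and 21 higher in each fraction, with medians of 1.23 in post-hypoxic and 1.19 in non-hypoxic cells. On the rest of chromosome 11 the 609 tested genes had medians of 0.27 in post-hypoxic and 0.23 in non-hypoxic cells, and over all tested genes the medians were 0.01 and -0.01. The share called lower was 75.9% before TPCN2 and 7.41% after SHANK2 in post-hypoxic cells, beside 28.4% on the rest of the chromosome. The rest of the chromosome also leaned higher, with 275 of its 609 genes called higher in post-hypoxic and 260 in non-hypoxic cells. Over all tested genes 34.8% and 34.5% were called higher.

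Among the genes before TPCN2, the rule named GAL, SYT12 and CTSF. GAL, which encodes the neuropeptide galanin, had 1 count over the post-hypoxic and 0 counts over the non-hypoxic SCC154 libraries, against 57.0 ± 20.9 CPM (SD, n = 5) in post-hypoxic and 50.3 ± 25.5 CPM (SD, n = 4) in non-hypoxic FaDu. With a floor of 3 counts over the group, it was at least 175-fold lower in non-hypoxic SCC154 than in non-hypoxic FaDu. SYT12, a synaptotagmin, was lower in SCC154, with a log2 difference of -6.17 in post-hypoxic and -6.00 in non-hypoxic cells. CTSF, a lysosomal cysteine protease, was higher, with log2 differences of 4.62 and 4.15. Both rest on few counts in the line where the gene was low. SYT12 averaged 1.03 CPM in post-hypoxic and 1.24 CPM in non-hypoxic SCC154. CTSF averaged 0.891 CPM in post-hypoxic and 1.09 CPM in non-hypoxic FaDu. After SHANK2 the rule named ARHGEF17 (log2 2.24 in post-hypoxic and 2.01 in non-hypoxic cells), RELT, a receptor of the tumour necrosis factor family (1.84 and 2.16), and INPPL1, a phosphoinositide phosphatase (2.02 and 1.89), all higher in SCC154. The nearest tested genes on either side were added after their values were seen. IGHMBP2, a helicase gene and the last tested before TPCN2, was lower in SCC154, at 25.4 ± 9.76 CPM (SD, n = 4) in post-hypoxic SCC154 and 61.3 ± 12.1 CPM (SD, n = 5) in post-hypoxic FaDu. DHCR7, which encodes an enzyme of cholesterol synthesis and is the first tested after SHANK2, was lower too, at 25.2 ± 7.41 CPM (SD, n = 4) in post-hypoxic SCC154 and 52.3 ± 12.2 CPM (SD, n = 5) in post-hypoxic FaDu. NADSYN1, an NAD synthetase gene next to DHCR7, was higher, with log2 differences of 0.61 in post-hypoxic and 0.48 in non-hypoxic cells. DHCR7-DT, a long non-coding RNA whose span lies within DHCR7, was higher too, with log2 differences of 3.16 and 3.50. It averaged only 0.79 CPM in post-hypoxic and 0.47 CPM in non-hypoxic FaDu. Its tags and those of DHCR7 cannot be told apart without strand.

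The second comparison asked whether cells with a past of low oxygen differed from the others of their line after return to normal oxygen. In neither line was any of the 9 tested members called. In SCC154, 93 of all genes (0.757%; 0.334% higher and 0.423% lower) were called in this comparison by edgeR, a count that ran from 18 without replicate 4 to 191 without replicate 5 of post-hypoxic SCC154. In FaDu 0 (0%) were called by edgeR, with 298 at an unadjusted p under 0.05 and 3 called by DESeq2. The FaDu libraries were taken as paired by replicate number, and with that block 7 genes of the whole table and none of the members were called. The FaDu values and intervals given next come from the fit without that block. In FaDu the log2 differences of the members, post-hypoxic minus non-hypoxic, ran from -0.28 for TPCN2 (95% interval -0.587 to 0.0273) to 0.28 for SHANK2 (95% interval -0.0907 to 0.65), every adjusted p was 1, and no unadjusted p was under 0.05. The SHANK2 value was 0.17 without replicate 5 of post-hypoxic FaDu and 0.01 from FaDu replicates 1 and 2 alone. The intervals were narrowest for CTTN (-0.22 to 0.124), FADD (-0.252 to 0.161) and PPFIA1 (-0.257 to 0.174), and those of CCND1 (-0.569 to 0.251) and ANO1 (-0.47 to 0.426) leave room for larger differences in either direction. Post-hypoxic and non-hypoxic libraries overlapped for each of the 9 genes in FaDu, where 0.561% of all tested genes were higher and 0.504% lower without overlap.

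In SCC154, PPFIA1 came closest to a call. All 4 post-hypoxic libraries (166 to 256 CPM) were below all 5 non-hypoxic libraries (266 to 298 CPM), and 2.99% of all tested genes were that way round without overlap (2.56% the other way round). The log2 difference was -0.36 (SE 0.11, 95% interval -0.586 to -0.132), a 1.28-fold lower level, with an adjusted p of 0.119 by edgeR. It was called when replicate 5 of post-hypoxic SCC154 was left out, with an adjusted p that rounds to the threshold of 0.05. In FaDu the log2 difference of PPFIA1 was -0.04, and the libraries of the fractions overlapped.

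FADD was the other member with an unadjusted p under 0.05 in SCC154, where 1930 of the 12291 tested genes had one. It averaged 83.5 ± 9.37 CPM (SD, n = 4) in post-hypoxic and 70.0 ± 9.02 CPM (SD, n = 5) in non-hypoxic SCC154, and the libraries of the fractions overlapped. Its log2 difference was 0.25 (95% interval 0.0251 to 0.481, adjusted p = 0.266). CCND1 averaged 126 ± 53.9 CPM (SD, n = 4) in post-hypoxic and 141 ± 35.5 CPM (SD, n = 5) in non-hypoxic SCC154, a log2 difference of -0.16 (95% interval -0.602 to 0.284, adjusted p = 0.763). Replicate 3 of post-hypoxic SCC154 weighed on that value: without it the log2 difference was 0.07 (adjusted p = 0.873). That library also deviated most from its group over all genes, and its level of NDRG1, a gene induced by low oxygen, was 71.2 CPM where the other 3 libraries of its group had 4.07 to 9.03 CPM. The part of these deviations in its CCND1 level was not tested.

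CTTN had the narrowest interval in SCC154, with a log2 difference of 0.04 (95% interval -0.136 to 0.215). MYEOV had the widest, at -0.69 (95% interval -1.54 to 0.172, adjusted p = 0.441), on its few counts. Its value was -0.33 without replicate 5 of non-hypoxic SCC154 and -1.03 without replicate 4 of post-hypoxic SCC154. LTO1 (-0.01), SHANK2 (-0.02), ANO1 (0.05) and TPCN2 (0.19) were not called either. Whether the fractions differed unequally in the 2 lines was tested by the interaction, SCC154 minus FaDu: 0 members were called, as were 2 of all genes (0.0163%), and the lowest adjusted p among members was 0.491 for TPCN2. Of the members, TPCN2 (0.47, 95% interval 0.0184 to 0.924) and PPFIA1 (-0.32, 95% interval -0.631 to -0.00442) had an unadjusted p under 0.05. So did 1202 of the 12291 tested genes. For CCND1 the log2 difference between the fractions was -0.16 in both lines. As single libraries were left out, the CCND1 interaction ran from -0.249 to 0.225.

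Genes that act with the members were listed in 8 groups of 85 symbols, of which 64 were tested. Between the fractions edgeR called 0 of the 64 in either line, with 11 in SCC154 and 0 in FaDu at an unadjusted p under 0.05, where 1930 and 298 of all 12291 tested genes were. DESeq2 called 2 of the 64 in SCC154. Between the lines, 44 of the 64 were called in post-hypoxic and 43 in non-hypoxic cells, beside 69.7% and 68.9% of all tested genes (34.9% lower and 34.8% higher in post-hypoxic, 34.5% each way in non-hypoxic cells). The counts of the single lists are to be read against these shares. The cyclin D list (17 tested) had 9 genes higher and 4 lower in post-hypoxic SCC154, and 8 higher and 3 lower in non-hypoxic SCC154, with medians of 0.47 and 0.43 on the log2 scale beside 0.01 and -0.01 over all genes. CDKN2A, which encodes the CDK4 and CDK6 inhibitor p16, had 219 ± 19.0 CPM (SD, n = 4) in post-hypoxic SCC154 and 71.1 ± 7.31 CPM (SD, n = 5) in post-hypoxic FaDu. It was higher in SCC154 by 1.62 on the log2 scale in post-hypoxic and 1.51 in non-hypoxic cells, and CDKN1A, which encodes the inhibitor p21, by 2.84 and 2.83. CDKN1A averaged only 3.905 CPM in post-hypoxic and 4.347 CPM in non-hypoxic FaDu. The transcription factor gene E2F3 was lower (-1.47 and -1.06), as was the cyclin gene CCND3 (-1.14 and -1.13), which was picked after its values were seen. CCND2 was not tested, with at most 1.49 CPM in any group mean.

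**Figure D4:**
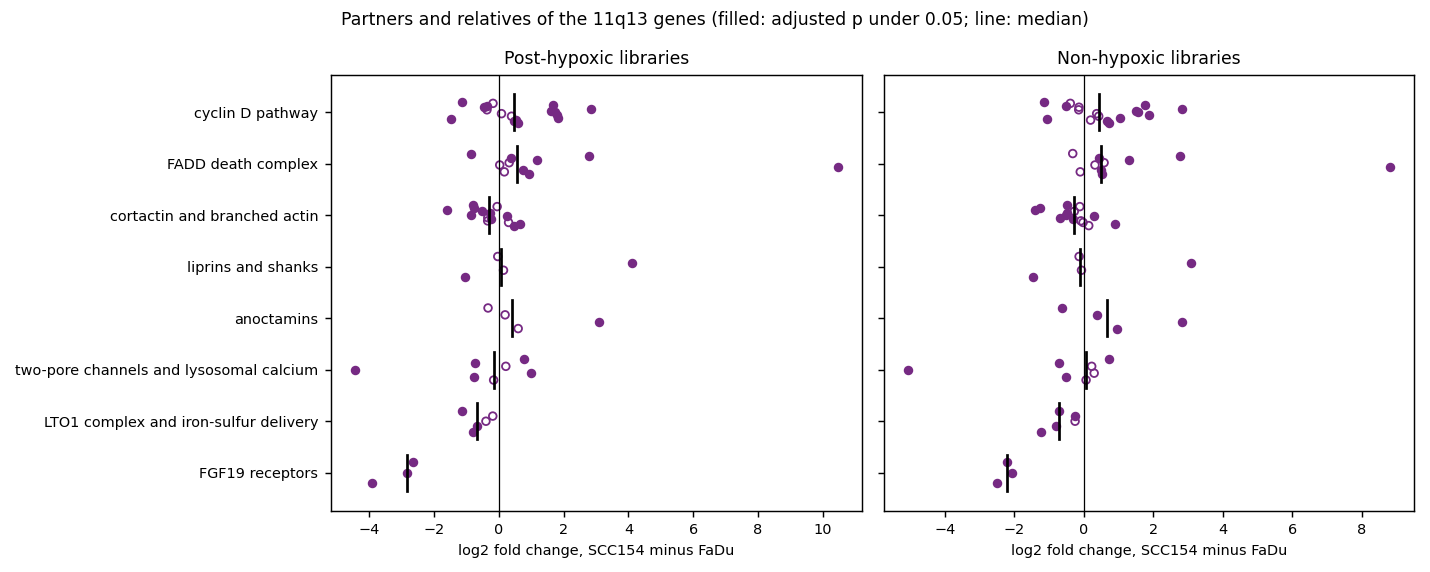
Log2 difference SCC154 minus FaDu of the tested genes of the 8 lists in each fraction, 1 point per gene, filled where called, with each list's median as a line; the point farthest right is TNFRSF10A, whose fitted value rests on FaDu levels at or near 0. The receptors of FGF19 lie lowest, with a median of -2.85 in post-hypoxic cells, and the death receptor and cyclin D lists have medians above 0.

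The death receptor list, partners of FADD (10 tested), had 6 genes higher and 1 lower in post-hypoxic SCC154, and 6 higher and 0 lower in non-hypoxic SCC154, with medians of 0.56 and 0.51. TNFRSF10A, which encodes a receptor of the death ligand TRAIL, averaged 81.7 CPM in post-hypoxic SCC154 and 0 CPM in post-hypoxic FaDu, and 80.8 CPM in non-hypoxic SCC154 and 0.124 CPM in non-hypoxic FaDu. CFLAR, which encodes a caspase-8 inhibitor (log2 1.19 and 1.31), and CASP10 (2.78 and 2.76) were also higher in SCC154, in which FADD itself was lower. CASP10 averaged only 2.43 CPM in post-hypoxic and 2.01 CPM in non-hypoxic FaDu. The branched actin list around CTTN (14 tested) had 7 genes lower in each fraction, 3 higher in post-hypoxic and 2 higher in non-hypoxic SCC154, and medians of -0.31 and -0.29. ARPC1B, a subunit of the Arp2/3 complex, was lower in SCC154, with a log2 difference of -1.61 in post-hypoxic and -1.41 in non-hypoxic cells. ACTR2 (-0.80) and ARPC4 (-0.87) of the same complex were named in post-hypoxic cells, and ARPC1A (-1.27) and WASL (0.90), which activates it, in non-hypoxic cells.

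The list around LTO1 (5 tested) had 0 genes higher in either fraction, 3 lower in post-hypoxic and 4 lower in non-hypoxic SCC154, with medians of -0.67 and -0.70. ABCE1 (-1.14 and -0.70), YAE1 (-0.81 and -1.23) and MMS19 (-0.67 and -0.81), which hands on iron-sulfur clusters, were all lower in SCC154, as LTO1 was. Of the 8 genes listed with FGF19, 3 were tested and all were lower in SCC154: FGFR3 (-3.91 in post-hypoxic and -2.50 in non-hypoxic cells), FGFR2 (-2.85 and -2.07) and FGFR1 (-2.67 and -2.21). In SCC154, FGFR2 averaged 0.919 CPM in post-hypoxic and 1.55 CPM in non-hypoxic cells, and FGFR1 2.05 and 2.59 CPM. FGFR3 averaged 3.10 CPM in post-hypoxic and 7.64 CPM in non-hypoxic SCC154. The differences of FGFR2 and FGFR1, and that of FGFR3 in post-hypoxic cells, thus rest on few counts in SCC154. FGFR4, the main receptor of FGF19, averaged 0.614 CPM in post-hypoxic SCC154 and 1.60 CPM in post-hypoxic FaDu and was not tested, and its co-receptor KLB had 0 counts in every group.

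Among paralogues of ANO1, ANO8 was also higher in SCC154 (log2 3.08 in post-hypoxic and 2.84 in non-hypoxic cells). It averaged only 1.74 CPM in post-hypoxic and 1.03 CPM in non-hypoxic FaDu. The list of paralogues had 4 tested genes, with 1 higher and 0 lower in post-hypoxic and 3 higher and 1 lower in non-hypoxic SCC154. The others named were ANO9 (0.97) and ANO10 (-0.63), both in non-hypoxic cells. The list of liprins, shanks and their receptors had 4 tested genes, 1 higher and 1 lower in each fraction: PPFIBP2, a liprin-β (4.10 and 3.07), and the receptor phosphatase PTPRS (-1.06 and -1.46). PPFIBP2 averaged only 1.05 CPM in post-hypoxic and 1.47 CPM in non-hypoxic FaDu, so its difference rests on few counts there. Around TPCN2, 7 lysosomal genes were tested, with 2 higher and 3 lower in post-hypoxic and 1 higher and 3 lower in non-hypoxic SCC154. Of these, the lysosomal calcium channel gene MCOLN3 was far lower (-4.44 and -5.07), while the membrane proteins of lysosomes went apart, with LAMP2 lower (-0.73 and -0.71) and LAMP1 higher (0.76 and 0.72). MCOLN3 averaged only 3.26 CPM in post-hypoxic and 2.37 CPM in non-hypoxic SCC154.

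Within a line, the genes most like CCND1 over its 9 libraries, by Pearson's r of log2 CPM among genes of at least 10 CPM, were CYCS (r = 0.973, Spearman's rho = 0.917), VCP (r = 0.955, rho = 0.917) and TOMM22 (r = 0.945, rho = 0.833) of 9539 in SCC154. In FaDu they were DNTTIP2 (r = 0.959, rho = 0.883), DDX18 (r = 0.957, rho = 0.9) and ATF5 (r = 0.953, rho = 0.883) of 9155. Of the other members in SCC154, ANO1 came nearest to CCND1 by Pearson's r (r = 0.807, rho = 0.717, place 188) and LTO1 next (r = 0.695, rho = 0.733, place 572). By Spearman's rho CTTN came first there (rho = 0.817, r = 0.476). In FaDu MYEOV had the highest r (r = 0.623, rho = 0.633, place 703) and PPFIA1 the highest rho (rho = 0.7, r = 0.581). SHANK2 ran opposite in FaDu (r = -0.858, rho = -0.817, place 9116). SHANK2 and MYEOV were under 10 CPM in SCC154 and were not ranked there. CCND1 and ANO1 were both lowest in replicate 3 of post-hypoxic SCC154 (58.2 and 117.5 CPM). Tags in the overlap of CCND1 and LTO1 cannot be assigned to either with certainty. Values of all genes come from the same 9 libraries of a line, and these correlations are a description with no test.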

How the data were processed

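Polyadenylated RNA was extracted with a column kit and made into QuantSeq 3′ mRNA libraries, per the labels' protocols. The authors deposited whole-number read counts per gene symbol for 18 libraries, and each column was matched to its sample by title. Per the submitters' processing notes, HISAT2 2.2.1 and the hg38 build were used, with featureCounts 1.5.1 and UMI-tools 1.1.5; also listed are Trimmomatic 0.39, FastQC 0.11.9 and DESeq2. The sources used here do not say in which order they ran, nor give the annotation, how strand was set or how reads with several matches were treated. A 3′ tag count depends on the annotated end of a transcript and not on its length, and no difference in level between genes was tested. The floor of 3 counts covers counting error only, while the 95% intervals of fold changes come from the fit and include the spread between libraries.

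The members and the gene lists were chosen with earlier results of these data known. Differences were tested over the whole table with edgeR 4.0.16 in R 4.3.3, with TMM factors and a quasi-likelihood fit of 4 group means to the 18 libraries. The filter was filterByExpr with the 4 groups (minimum count 10), which 12291 symbols passed, of the 22591 with a count. P-values were adjusted by Benjamini and Hochberg over all genes tested, with a threshold of 0.05. The standard error is the log2 fold change divided by the square root of F. The fits were tested on simulated data first. Replicates of a group differed by more than counting noise, with a chi-square per degree of freedom of 1.84 to 11.7 over 32 pairs, so all libraries were counted singly.

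Alternatives were DESeq2 1.42.0, limma 3.58.1 (voom), other scalings, no filter, the libraries of a line or fraction alone, leaving out libraries, and replicate blocks. Same-numbered FaDu libraries deviated together over the genes tested (correlations 0.178 to 0.447), all above the limit of 0.1 taken as pairing, a link that comes from the data and not from the labels.

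Positions are from GENCODE v29, with 267 symbols of chromosome 11 placed by RefSeq GRCh38.p14. Named by rule were all members, every other tested gene between TPCN2 and SHANK2, the 3 largest differences in each flank (called in both fractions, mean of at least 10 CPM), up to 3 called genes of each list per contrast with the lowest adjusted p, and the 3 genes most like CCND1 in each line (log2 CPM with a prior count of 2).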

Additional observations from a re-analysis of the deposited data

Results flagged for a closer look

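In 5 of 36 groups of libraries examined, 1 library stood apart from the rest of its group by its gap to the nearest other library, taken as a share of the whole range of the group. Chance alone flags about 1 in 20 groups. CCND1 was low in replicate 2 of non-hypoxic FaDu, at 795.1 CPM where the others had 841 to 845 CPM. FADD was low in replicate 5 of post-hypoxic FaDu, at 254.7 CPM where the others had 297 to 308 CPM. PPFIA1 was high in replicate 1 of non-hypoxic SCC154, at 298.1 CPM where the others had 266 to 272 CPM. ANO1 was high in replicate 4 of post-hypoxic FaDu, at 25.05 CPM where the others had 15.1 to 16.7 CPM. MYEOV was high in replicate 5 of non-hypoxic SCC154, at 7.425 CPM where the others had 2.46 to 3.85 CPM. None of these libraries brought a line into the range of the other.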

How the results depend on the processing

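The line differences of the 9 tested members kept their direction under all 29 alternatives in each fraction, and all but that of TPCN2 in post-hypoxic cells kept their call. TPCN2 in post-hypoxic cells was also called with FaDu replicates 3 and 4 only (log2 -0.47, adjusted p = 0.0384). The members called were 9 in non-hypoxic cells under every alternative, and 8 to 9 in post-hypoxic cells. With a replicate block set within each line, 1 member was called between the fractions of SCC154, PPFIA1 (log2 -0.35, adjusted p = 0.0172), and 1052 genes of the whole table where 93 were called without it; with a block shared by both lines 0 members and 243 genes were. Same-numbered SCC154 libraries correlated at 0.0292 (replicate 2), 0.292, 0.398 and 0.144, and since 1 of these is not above 0.1 the SCC154 numbers were not taken as pairs; in each line 6 of 8 libraries correlated best with their own number. The line differences cannot be given with a block within each line. Listed partner genes called in SCC154 between the fractions numbered 0 in the main result, 2 with DESeq2, 2 without a filter, 6 with the block within lines, 2 with the block across lines and 2 with FaDu replicates 3 and 4 only; 1 was called for the interaction with the block within lines. Leaving out 1 library at a time gave 0 to 1 members and 0 to 2 partner genes called in SCC154. Over the whole table, SCC154 called 203 genes with DESeq2, 291 without a filter, 26 with FaDu replicates 1 and 2 only and 19 from SCC154 libraries alone; FaDu called 10 without a filter; and the interaction called 19 with DESeq2, 51 without a filter, 224 and 5 with the blocks and 1 with either pair of FaDu replicates. With flanks of 1.5 Mb the medians before TPCN2 were -1.34 in post-hypoxic and -1.43 in non-hypoxic cells, and after SHANK2 0.674 and 0.944. No difference between the fractions that changed sign was called on either side. For ANO1 in FaDu they were 0.0372 (voom), 0.00432 (library totals) and 0.182 (FaDu replicates 1 and 2), and for LTO1 in SCC154 0.0109 (upper quartile), 0.0102 (library totals), 0.0502 and 0.0458 (blocks) and 0.0944 (without replicate 1 of non-hypoxic and 3 of post-hypoxic SCC154). Without these 2 libraries CCND1 in SCC154 was 0.209 and its interaction 0.368; that interaction was also 0.0127 (upper quartile), 0.00571 (no filter), 0.0472 and 0.0766 (blocks). In FaDu, FADD was 0.00238 with the block within lines and, with replicates 1 and 2 only, 0.0335, CTTN 0.0859 and PPFIA1 0.0706; the interactions of CTTN and ANO1 were then -0.0382 and -0.125. MYEOV in FaDu was -0.00469 with the block across lines and -0.136 with replicates 3 and 4. Leaving out single libraries gave ranges of -0.207 to 0.230 for ANO1, -0.128 to 0.160 for MYEOV, -0.0882 to 0.00182 for FADD, -0.0939 to 0.0144 for CTTN and -0.0908 to 0.000717 for PPFIA1 in FaDu. In SCC154 these were -0.408 to 0.0661 for CCND1, -0.112 to 0.0660 for LTO1, -0.00047 to 0.0662 for CTTN, -0.165 to 0.182 for SHANK2 and -0.0270 to 0.145 for ANO1 (0.0783 for CTTN and 0.202 for ANO1 without the 2 libraries together), and for the interaction -0.249 to 0.225 for CCND1 and -0.181 to 0.257 for ANO1. With no change of sign, MYEOV in SCC154 ran from -1.03 to -0.333, TPCN2 in SCC154 from 0.0884 to 0.257 and SHANK2 in FaDu from 0.169 to 0.405. The cause of these shifts was not tested. Depth limits FGF19, which could not be tested, and MYEOV in SCC154.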

Other observations

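MIR548K, a microRNA gene between CCND1 and SHANK2 that was not tested, had 0 counts in SCC154, against 12 counts over the post-hypoxic and 4 over the non-hypoxic FaDu libraries. It lies within PPFIA1 on the same strand, so its tags and those of PPFIA1 cannot be told apart. The non-coding gene LINC02584 of the same interval ran the other way, with 8 counts over the post-hypoxic and 4 over the non-hypoxic SCC154 libraries, against 0 in FaDu. It lies on the minus strand between the RefSeq promoter window of ANO1 and the ANO1 start in GENCODE v29. Its few tags cannot be told apart from those of a longer ANO1 transcript without strand.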
